A study of Mus musculus with 4 samples.

Results

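Histone H3K4 signal was examined at 10 genes for inflammatory and regulatory cytokines in activated mouse B cells with and without PA1. The genes were a named list (Il6, Il1b, Tnf, Lta, Ltb, Il12a, Ebi3, Il10, Tgfb1 and Ccl22), not chosen by a threshold, out of 22367 protein-coding genes of GENCODE vM1. All 10 were found by name in that annotation, with 18 annotated transcription start sites (TSS) between them. A pair of libraries of chromatin immunoprecipitation followed by sequencing (ChIP-seq) was compared, 1 from PA1-knockout and 1 from wild-type splenic B cells, both with an antibody labelled only H3K4. PA1 binds PTIP within the H3K4 methyltransferase complexes built on MLL3 and MLL4, and the series concerns its part in immunoglobulin class switching.

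Cells of both genotypes came from spleens of mice aged 6 to 14 weeks, were enriched by removing CD43-bearing cells and were activated for 2 days. The activation was 25 µg/ml LPS, joined by IL-4 at 5 ng/ml or else by dextran-bound anti-IgD at 2.5 ng/ml, and the labels do not say which of these the 2 libraries received. They also do not give the methylation state that the antibody recognised, how or in which cells PA1 was deleted, or how many animals were pooled. The series lists 4 samples, and the other 2 were not analysed here. Reads on nuclear chromosomes numbered 5259995 for knockout and 5539475 for wild type. With 1 library per genotype no difference has a replicate check, and the interval after each ratio covers counting error in these 2 libraries only.

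Methylation of H3K4 marks regulatory DNA: the trimethylated form gathers just downstream of active or poised start sites, and the monomethylated form lies over enhancers. Cytokine genes are mostly inducible. In B cells, LPS acts through Toll-like receptor signalling and NF-kB, and the B cell products IL-6, TNF, lymphotoxin and IL-10 pass signals to T cells, stromal cells and other myeloid or lymphoid cells. Lymphotoxin and TNF are encoded side by side within the major histocompatibility complex, so their H3K4 signal can be viewed along 1 locus.

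The promoters on which the results turn are shown first, as the NCBIM37 (mm9) reference sequence from 250 bases before to 49 bases after the annotated start. They are those of Il6 and Lta, the members that were lower in the knockout library, and those of Tnf and Ltb, the neighbours of Lta. Capitals mark matches on either strand to the NF-kB consensus (10 bases) or to TATAAA. The regions are chr5:30339451-30339750 on the plus strand for Il6, chr17:35342247-35342546 and chr17:35338900-35339199 on the minus strand for Lta and Tnf, and chr17:35331321-35331620 on the plus strand for Ltb.
Il6: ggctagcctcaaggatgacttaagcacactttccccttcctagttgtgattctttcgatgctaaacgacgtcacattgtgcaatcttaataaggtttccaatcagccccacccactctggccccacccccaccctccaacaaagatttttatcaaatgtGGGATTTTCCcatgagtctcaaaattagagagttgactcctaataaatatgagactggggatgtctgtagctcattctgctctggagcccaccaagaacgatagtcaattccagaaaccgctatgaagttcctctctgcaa
Lta: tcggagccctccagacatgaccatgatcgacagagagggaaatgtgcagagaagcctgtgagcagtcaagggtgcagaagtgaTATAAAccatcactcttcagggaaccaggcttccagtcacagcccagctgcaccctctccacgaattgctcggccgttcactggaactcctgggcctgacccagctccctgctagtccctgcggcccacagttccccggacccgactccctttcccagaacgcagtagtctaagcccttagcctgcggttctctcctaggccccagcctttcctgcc
Tnf: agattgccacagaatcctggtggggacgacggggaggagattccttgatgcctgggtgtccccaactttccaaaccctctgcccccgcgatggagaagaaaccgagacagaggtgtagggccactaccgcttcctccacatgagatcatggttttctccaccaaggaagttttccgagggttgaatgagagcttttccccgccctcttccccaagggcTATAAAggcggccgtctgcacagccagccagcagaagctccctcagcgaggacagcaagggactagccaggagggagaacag
Ltb: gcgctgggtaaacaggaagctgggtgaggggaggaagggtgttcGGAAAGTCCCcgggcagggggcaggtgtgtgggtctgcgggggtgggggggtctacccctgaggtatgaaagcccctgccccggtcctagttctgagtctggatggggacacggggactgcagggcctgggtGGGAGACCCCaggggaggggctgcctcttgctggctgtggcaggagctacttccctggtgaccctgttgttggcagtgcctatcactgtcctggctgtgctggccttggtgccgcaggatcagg

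The Il6 promoter held an NF-kB consensus match that began 91 bases upstream of its start, and Ltb held matches 206 and 74 bases upstream, the last of which reads as a match on both strands. Lta and Tnf had none in these windows but held TATAAA, 167 and 32 bases upstream. Of all 10 members, 4 (Il6, Il10, Ltb and Ebi3) had an NF-kB match, against 9.27% of the 22367 promoters, and 4 (Il10, Tnf, Lta and Il1b) had TATAAA, against 12.2%. The GC content of the printed windows was 45.3% for Il6, 59% for Lta, 57.7% for Tnf and 65.7% for Ltb.

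Reads were counted within 1 kb of the start that held the most reads, after moving each 5′ end 75 bp into its fragment. The ratio of knockout to wild type was scaled by TMM (a trimmed mean of the log ratios of all promoters compared). Levels are given as normalised RPM (reads of a promoter divided by the library's nuclear reads, as RPM, after that scaling). A promoter was called higher or lower where it had 50 or more reads in both libraries together, a ratio of at least 1.5-fold, and a 95% interval that excluded 1. All members but Il1b and Ccl22 reached 50 reads. Of these 8, 2 were called lower and 0 higher, while among all 12186 promoters with 50 or more reads 4.9% were called lower and 0.665% higher. The members' median log2 ratio was -0.06, beside 0.00 for all promoters compared. TMM was fitted on these same promoters, so a median near 0 for all of them follows from the scaling. Fewer cells that carry the mark and less mark per cell cannot be told apart in these bulk libraries.

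**Figure D1:**
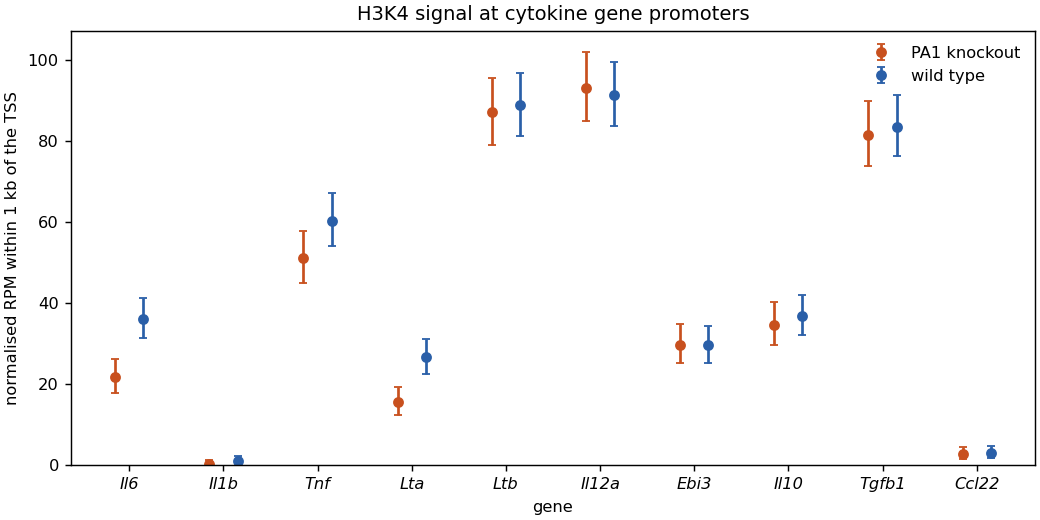
H3K4 signal at each cytokine promoter (normalised RPM within 1 kb of the TSS), knockout left of wild type, with exact 95% Poisson intervals for counting error and 1 library per genotype. Il12a, Ltb and Tgfb1 stood above 80 normalised RPM in both libraries, Il1b and Ccl22 near 0, and the intervals of the genotypes were apart at Il6 and Lta.

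The levels spanned a wide range. In normalised RPM, Il12a was highest, at 93.2 in the knockout library and 91.4 in the wild-type library. Ltb followed at 87.1 knockout and 88.8 wild type, then Tgfb1 at 81.5 knockout and 83.6 wild type, and these top 3 were not separated beyond their counting intervals within either library. Tnf stood below them at 51.1 knockout and 60.3 wild-type normalised RPM. Il10 (34.6 knockout, 36.8 wild type), Ebi3 (29.7 knockout, 29.5 wild type) and Il6 (21.6 knockout, 36.1 wild type) made the next group. In the wild-type library Il6 and Il10 were alike, within counting error, while in the knockout library the Il6 interval (17.7 to 26) lay below that of Il10 (29.7 to 40.2). Lta had 15.4 knockout and 26.5 wild-type normalised RPM. Ccl22 (2.57 knockout, 2.77 wild type) and Il1b (0.198 knockout, 1.04 wild type) held almost no signal. All windows span the same length, but levels were not corrected for base composition or mappability. The ratio moved with GC content across all promoters, with a median of 1.21 below 45% GC and 0.814 from 65% GC upward.

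Il6 encodes interleukin-6, a cytokine that drives plasma cell and T helper differentiation and the acute-phase response. Its start (ENSMUSG00000025746.7) lies at position 30339701 on the plus strand of chromosome 5. The window held 109 knockout against 208 wild-type reads, giving a ratio of 0.598 (0.470 to 0.758). Its rank was 411 from the lowest of 12186 promoters. Less strongly marked promoters had lower ratios in general. Promoters with 800 or more reads had a median ratio of 1.07. Among the 2861 promoters with 200 to 400 reads, to which Il6 and Lta belong, the median ratio was 0.946, the 5th to 95th percentile ran from 0.699 to 1.27, and 3.53% were called lower. Both genes lay below the 5th percentile of that class. Lta, with 231 reads, stood near the lower edge of the class. Among promoters with 100 to 200 reads the 5th percentile was 0.529, and 21.1% were called lower. With the trend of the ratio with read level removed, Il6 stood at 0.631 (0.496 to 0.799) and Lta at 0.659 (0.495 to 0.871), both still called lower, while 177 promoters in all were called lower in place of 597. With the trend with GC content removed, Il6 stood at 0.525 (0.413 to 0.665) and Lta at 0.574 (0.432 to 0.759), both called lower. Promoters called lower in that setting numbered 459. Plus-strand reads gave an Il6 ratio of 0.649 (0.467 to 0.895; 62 knockout, 109 wild-type reads) and minus-strand reads 0.542 (0.374 to 0.774; 47 knockout, 99 wild-type reads), so both orientations of read were fewer.

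The difference at Il6 lay downstream of the start. The first 1 kb of the gene held 90 knockout against 195 wild-type reads, giving a ratio of 0.527 (0.406 to 0.680). The next 1 kb held 44 knockout against 76 wild-type reads, giving a ratio of 0.661 (0.445 to 0.970), and the one after that 14 knockout against 51 wild-type reads, giving a ratio of 0.313 (0.160 to 0.575). All 3 Il6 bins with 50 or more reads were thus called lower. Upstream this was not seen: the 1 kb before the start held 19 knockout against 13 wild-type reads. That bin was below the read minimum, and its ratio of 1.67 (0.782 to 3.67) had an interval that included 1. Of the reads within 1 kb, 82.6% lay downstream in the knockout library, against 93.8% in the wild-type library. The 100 bp with the most reads were the same in both, from 200 to 300 bp after the start, with 16 knockout against 43 wild-type reads. The 500 bp from 1000 to 1500 bp held 21 knockout against 24 wild-type reads, giving a ratio of 0.999 (0.529 to 1.87), and the 500 bp beyond held 23 knockout against 52 wild-type reads, giving a ratio of 0.505 (0.295 to 0.840). These intervals overlap, and the difference between stretches downstream of the start was not tested.

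Only 2 islands of enrichment lay within 20 kb of the Il6 start. Islands were called on both libraries together. One covered the promoter and the 5′ part of the gene (30339401 to 30342200), with 162 knockout against 325 wild-type reads, giving a ratio of 0.569 (0.468 to 0.689). The other, 400 bp long and 3.7 kb upstream in intergenic DNA (30335801 to 30336200), held 12 knockout against 10 wild-type reads, too few to compare. No other protein-coding start of the annotation lay within 20 kb. Reads from 1 to 20 kb on both sides gave 109 knockout against 205 wild-type reads, giving a ratio of 0.607 (0.477 to 0.769), most of them from the same island. The promoters nearest to Il6 in normalised RPM in the 2 libraries were A930004D18Rik, Zcchc24 and Megf9.

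Il1b, which encodes the inflammasome-released cytokine interleukin-1 beta and is chiefly a product of myeloid cells, was almost unmarked. Its window on chromosome 2 (start 129196875, minus strand) held 1 knockout against 6 wild-type reads, and the window of its second start, 129193087, held 1 knockout and 2 wild-type reads. These are too few for a ratio to be read. The surrounding 1 to 20 kb held 35 knockout against 66 wild-type reads, giving a ratio of 0.605 (0.390 to 0.925), spread over small groups of reads with no bin of 50 and no island. Within 5 Mb of Il1b, 1 position mismatched the reference only among knockout reads and 49 only among wild-type reads, and the part of this in the read counts was not tested.

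**Figure D2:**
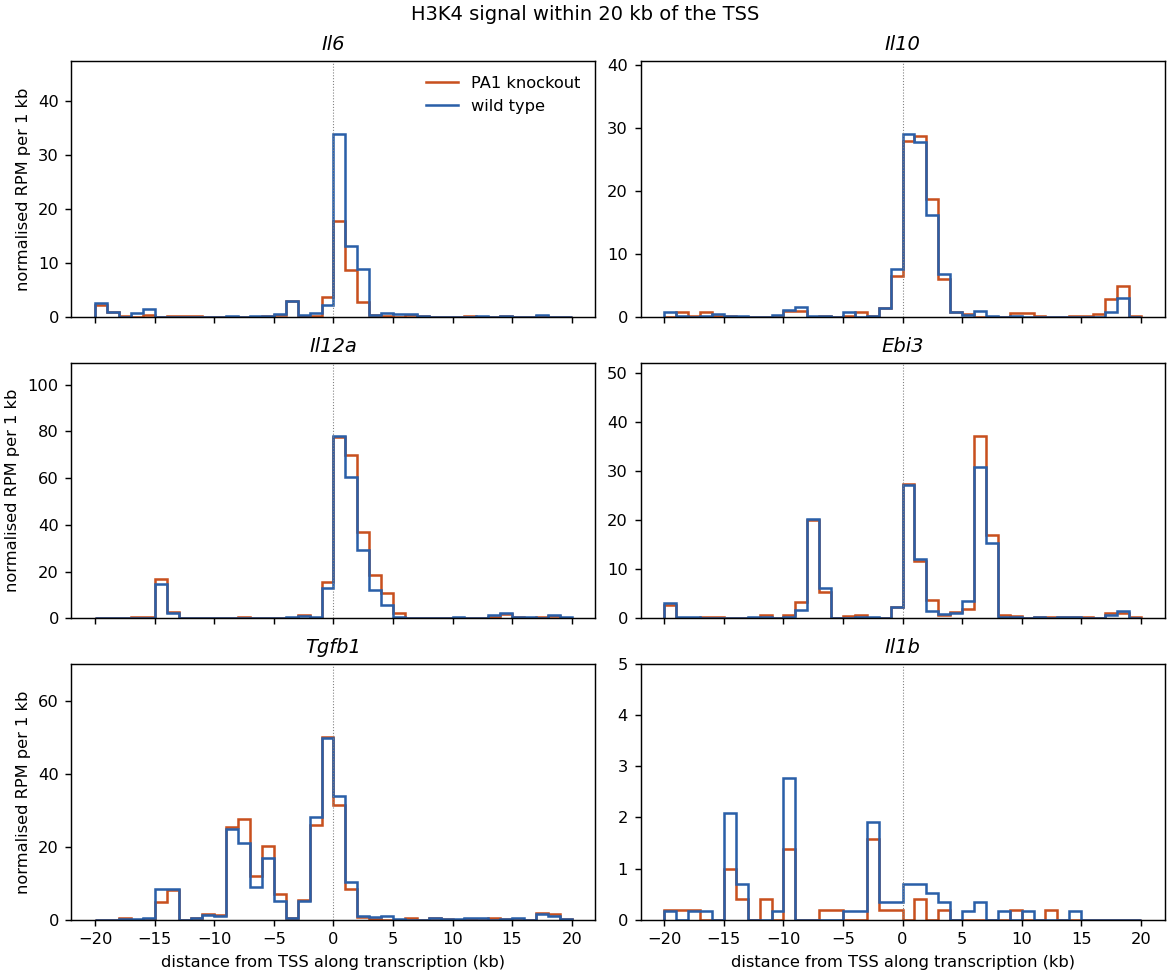
H3K4 signal in 1 kb bins within 20 kb of the start of 6 members (normalised RPM per bin against distance along the direction of transcription), knockout and wild type as separate lines. At Il6 the wild-type line stood above the knockout line from 0 to 3 kb, at Il12a the knockout line was the higher from 1 to 5 kb, and the lines ran close together at the starts of Il10 and Ebi3.

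The TNF family genes Lta, Tnf and Ltb lie close together on chromosome 17 and had unequal ratios. Tnf encodes tumour necrosis factor, Lta encodes lymphotoxin alpha, and Ltb encodes the membrane subunit that joins lymphotoxin alpha in the heterotrimer needed for lymphoid organ structure. Lta (ENSMUSG00000024402.5, minus strand, start 35342296) had 78 knockout against 153 wild-type reads, giving a ratio of 0.582 (0.437 to 0.769), rank 351 from the lowest. Tnf (ENSMUSG00000024401.8, minus strand, start 35338949) had 258 knockout against 348 wild-type reads, giving a ratio of 0.846 (0.717 to 0.997), under the 1.5-fold threshold. Ltb (ENSMUSG00000024399.5, plus strand, start 35331571) had 440 knockout against 512 wild-type reads, giving a ratio of 0.981 (0.861 to 1.12), with nearly equal signal in both libraries after TMM scaling.

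Set against each other within each library, which needs no scaling, Lta was lower than Ltb by a ratio of ratios of 0.593 (0.433 to 0.809). Tnf against Lta gave 1.45 (1.05 to 2.03), and Tnf against Ltb 0.863 (0.699 to 1.06). The order Lta, Tnf, Ltb therefore held beyond counting error for Lta against each neighbour but not for Tnf against Ltb. It is also the order of their read levels, and a ratio of ratios does not cancel the trend with level. With that trend removed, Lta stood at 0.659 (0.495 to 0.871), Tnf at 0.812 (0.689 to 0.957) and Ltb at 0.910 (0.800 to 1.04). The pairs were not compared again after its removal. Plus-strand reads gave an Lta ratio of 0.571 (0.364 to 0.879; 33 knockout, 66 wild-type reads) and minus-strand reads 0.590 (0.402 to 0.856; 45 knockout, 87 wild-type reads). At Lta 61.5% of knockout and 64.7% of wild-type reads lay downstream of the start, and the 100 bp just upstream held the most reads in both (15 knockout, 34 wild-type reads). The promoters nearest to Lta in the 2 levels were Cldn23, Fosl1 and Cd300lf.

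The islands at the 3 starts followed the same order. The Ltb island (35330001 to 35334000) had 660 knockout against 750 wild-type reads, giving a ratio of 1.0 (0.903 to 1.12). The Tnf island (35336601 to 35339600) had 328 knockout against 454 wild-type reads, giving a ratio of 0.825 (0.713 to 0.952). The Lta island (35341201 to 35342600) had 76 knockout against 154 wild-type reads, giving a ratio of 0.563 (0.422 to 0.746). Beyond Lta, 2 intergenic islands held fewer reads: 35346601 to 35347600 had 30 knockout against 50 wild-type reads, giving a ratio of 0.685 (0.420 to 1.10), and 35355201 to 35356400 had 18 knockout against 51 wild-type reads, giving a ratio of 0.403 (0.221 to 0.701). On the other side of Ltb, an island within Lst1 (35322601 to 35324000) had 119 knockout against 96 wild-type reads, giving a ratio of 1.41 (1.07 to 1.87), below the 1.5-fold threshold. Between it and Ltb, an island from 35324401 to 35325400 stood at 1.01 (0.550 to 1.84; 23 knockout, 26 wild-type reads) and one from 35326801 to 35327400 at 0.642 (0.339 to 1.18; 18 knockout, 32 wild-type reads), so ratios did not run in 1 direction across the whole locus. A 1 kb bin over the Lst1 island was called higher when bins were set from the Ltb start, at 1.75 (1.28 to 2.42; 103 knockout, 67 wild-type reads), or from the Lta start, at 1.72 (1.25 to 2.38), but none was when bins were set from the Tnf start. The Lst1 promoter itself had 26 knockout against 33 wild-type reads. Scaled to background reads, the Lst1 island was at 1.14, Ltb at 0.811, Tnf at 0.666 and Lta at 0.455. A change of scale multiplies all ratios by the same factor, so it cannot alter the order of these 4. The direction at Ltb depended on the scaling.

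**Figure D3:**
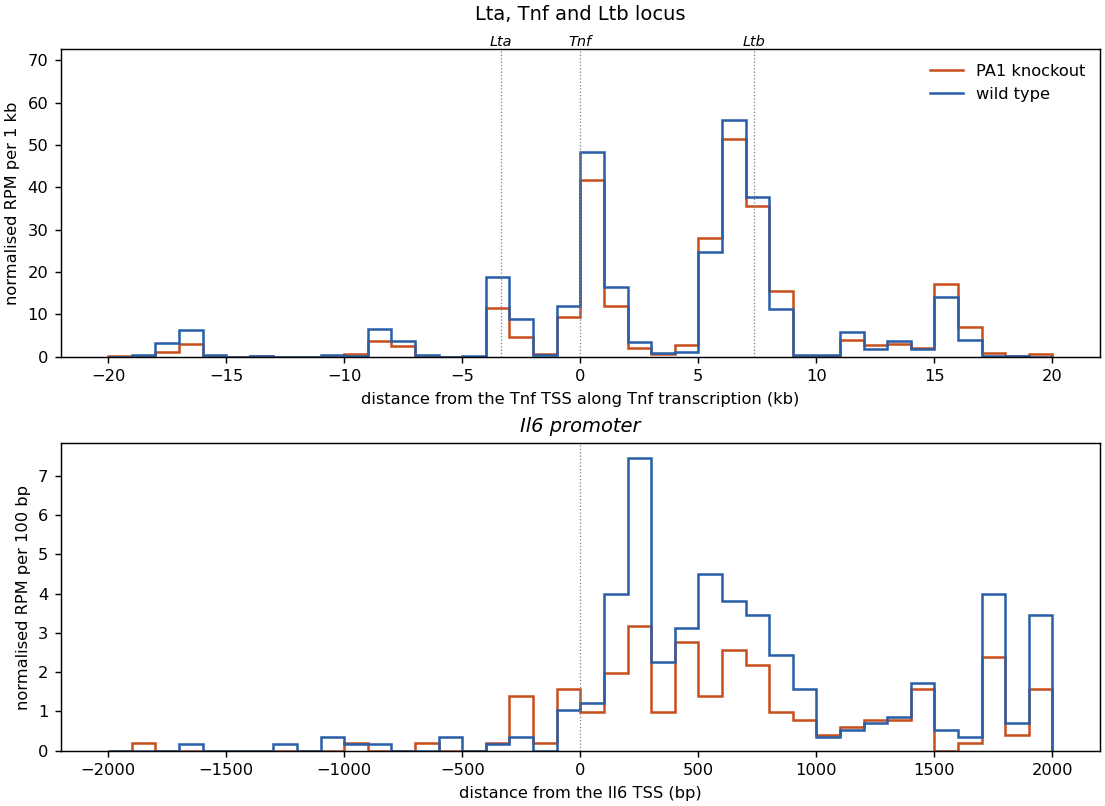
Upper panel: H3K4 signal in 1 kb bins across the Lta, Tnf and Ltb locus (normalised RPM per bin against distance from the Tnf start along Tnf transcription), with dotted lines at the 3 starts. Lower panel: the Il6 promoter in 100 bp bins; the knockout line was lower at Lta and along the first 1000 bp of Il6 and close to wild type at Ltb.

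The subunits of the heterodimeric interleukins had promoter ratios near 1 with TMM scaling. Il12a encodes the p35 chain, which pairs with p40 in IL-12 and with EBI3 in IL-35, and Ebi3 encodes that second partner, which also forms IL-27. Il12a (ENSMUSG00000027776.6, chromosome 3, plus strand, start 68495346) had 471 knockout against 527 wild-type reads, giving a ratio of 1.02 (0.899 to 1.16). Its other annotated start, 68494566, whose window overlaps this one, had 161 knockout against 175 wild-type reads, giving a ratio of 1.05 (0.842 to 1.31). Ebi3 (ENSMUSG00000003206.6, chromosome 17, plus strand, start 56092046) had 150 knockout against 170 wild-type reads, giving a ratio of 1.01 (0.803 to 1.26). At Ebi3 the interval allows ratios from 0.803 to 1.26, so a difference in either direction within that range was not detectable at this depth.

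Along the body of Il12a the ratio increased with distance from the start. Its island was the longest at any member, 5600 bp (68494801 to 68500400), with 1157 knockout against 1146 wild-type reads. The island ratio was 1.15 (1.06 to 1.25) with TMM scaling and 0.930 when scaled to background reads, so its direction depended on the scaling. The successive 1 kb bins from the start had ratios of 0.995 (393 knockout, 451 wild-type reads), 1.15 (353 knockout, 349 wild-type reads), 1.26 (187 knockout, 169 wild-type reads), 1.51 (94 knockout, 71 wild-type reads) and 1.81 (54 knockout, 34 wild-type reads), and the last pair, with intervals of 1.10 to 2.09 and 1.16 to 2.87, was called higher. Across all protein-coding genes the bins from 1 to 2 kb downstream had a median ratio of 1.17 and 13.5% called higher, and the bins from 4 to 5 kb a median of 1.01 and 8.51% called higher. An intergenic island 14.3 kb upstream of Il12a (68480401 to 68481600) had 97 knockout against 89 wild-type reads, giving a ratio of 1.24 (0.923 to 1.68). Around Ebi3 the nearest other marked promoters were those of Zfp119b, at 0.978 (138 knockout, 161 wild-type reads), and Ccdc94, at 1.12 (280 knockout, 285 wild-type reads). Positions with a mismatch in 1 library only, within 5 Mb of Ebi3, numbered 14 for knockout and 1 for wild type, and 13 for knockout and 2 for wild type around Tgfb1.

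The regulatory cytokine genes Il10 and Tgfb1 were also close to equal with TMM scaling. Il10 encodes interleukin-10, the anti-inflammatory cytokine for which regulatory B cells are known, and Tgfb1 encodes transforming growth factor beta 1, which directs switching to IgA. Il10 (ENSMUSG00000016529.5, chromosome 1, plus strand, start 132916422) had 175 knockout against 212 wild-type reads, giving a ratio of 0.942 (0.767 to 1.16). Its island ran 4400 bp into the gene with 440 knockout against 497 wild-type reads, giving a ratio of 1.01 (0.887 to 1.15), and the 100 bp with the most reads lay 1100 to 1200 bp after the start in both libraries. A 200 bp island 18.3 kb downstream held 15 knockout against 7 wild-type reads, too few to compare. Within 5 Mb of Il10, 46 positions mismatched the reference only among knockout reads and 1 only among wild-type reads, and the part of this in the read counts was not tested.

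Tgfb1 (ENSMUSG00000002603.9, plus strand, start 26473946) lies on chromosome 7, which also carries PA1, far from it. It had 412 knockout against 482 wild-type reads, giving a ratio of 0.976 (0.853 to 1.11). Its upstream start, 26472021, had 171 knockout against 210 wild-type reads, giving a ratio of 0.929 (0.755 to 1.14), and its downstream start, 26477437, held only 1 knockout against 9 wild-type reads. In contrast to the other strongly marked members, most of its reads lay upstream of the counted start, with 38.6% downstream in the knockout and 40.5% in the wild-type library. The neighbouring promoters B9d2, at 1.14 (280 knockout, 281 wild-type reads), and Tmem91, at 0.765 (65 knockout, 97 wild-type reads), were not called, although 1 bin over Tmem91 was lower at 0.559 (24 knockout, 49 wild-type reads).

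Ccl22 encodes a chemokine that draws cells bearing the receptor CCR4 and is induced by IL-4 in myeloid and B cells. Its window on chromosome 8 (start 97269580) held 13 knockout against 16 wild-type reads, giving a ratio of 0.927 (0.410 to 2.06), and that of its other start 11 knockout and 14 wild-type reads. A 400 bp intergenic island 9.78 kb upstream held 17 knockout against 17 wild-type reads. The flank from 1 to 20 kb had 55 knockout against 61 wild-type reads, so a difference at Ccl22 was not detectable at this depth.

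**Figure D4:**
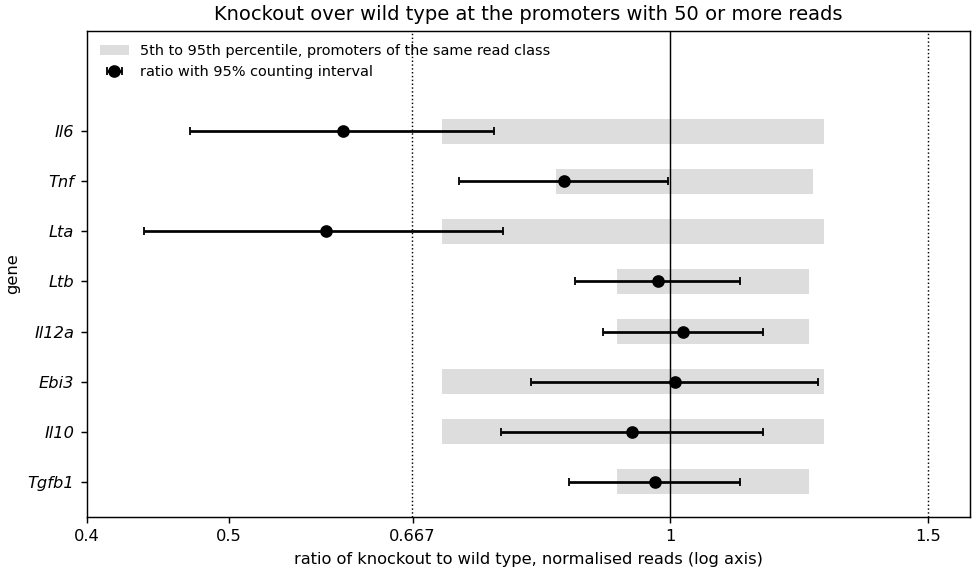
Ratio of knockout to wild type (log axis) at the 8 promoters with 50 or more reads, with 95% counting intervals; grey bars are the 5th to 95th percentile of all promoters of the same read class, the solid line is 1 and the dotted lines are 1.5-fold. Il6 and Lta lay left of the 1.5-fold line and of their grey bars, and the other 6 lay between 0.846 and 1.02.

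Among the 8 members compared, the pairwise ratios of ratios separated Il6 and Lta from the rest. Of 28 pairs, 12 had a 95% interval that excluded 1, unadjusted for their number, and each of the 12 involved Il6 or Lta. Il6 against Lta gave 1.03 (0.708 to 1.5). Il6 ranged from 0.587 (0.446 to 0.768) against Il12a to 0.707 (0.527 to 0.946) against Tnf, and Lta from 0.571 (0.417 to 0.777) against Il12a to 0.688 (0.494 to 0.954) against Tnf. The other 6 members had no interval that excluded 1 among themselves, which does not show that they were equal. These pairs were chosen after the ratios were seen, and they hold within these libraries only. They cancel the library scale but not the trend of the ratio with read level. Lta (231), Il6 (317) and Ebi3 (320) had the fewest reads of the 8 in both libraries together.

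In the 1 kb bins within 20 kb, counting the TNF locus once, 7 of 47 bins with 50 or more reads were called lower and 2 higher. Around all protein-coding genes 4.67% of 56301 such bins were lower and 5.15% higher. The 7 lower bins were the 3 of Il6, 2 over Lta, 1 in the distant island beyond Lta and the 1 over Tmem91, and both higher bins were those of Il12a. That count sets the bins of the TNF locus from the Tnf start (3 lower and 0 higher of 14). Set from the Lta start they gave 3 lower and 1 higher of 13, and from the Ltb start 2 lower and 1 higher of 13. Bins with 50 to 100 reads were called lower in 9.67% of cases across all genes. With TMM scaling the flanks from 1 to 20 kb had a median log2 ratio of -0.03 over the 10 members, against 0.10 over all promoters compared. With that scaling Il12a was highest at 1.23 (1.12 to 1.36; 845 knockout, 781 wild-type reads), and Il1b and Il6 were lowest.

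Other cytokine and chemokine genes were mostly without the mark. Of 57 matched genes, 17 had 50 or more reads. Of those, 2 were called lower and 1 higher (4.9% and 0.665% over all promoters compared), and the median log2 ratio was -0.05. The lower ones were Csf2, which encodes the granulocyte-macrophage growth factor, with 15 knockout against 36 wild-type reads (0.476; 0.242 to 0.891), and Clcf1, a cytokine of the IL-6 family, with 60 knockout against 104 wild-type reads (0.658; 0.471 to 0.913). The higher one was the chemokine Ccl3, with 41 knockout against 26 wild-type reads (1.80; 1.07 to 3.06). Each rested on few reads. Across all genes 26.8% of promoters with 50 to 100 reads were called lower and 2.19% higher. Of those with 100 to 200 reads, 21.1% were called lower and 2.21% higher. None was called in every setting: Csf2 in 9 of 11, Clcf1 in 7 of 14 and Ccl3 in 8 of 11. Ccl3 has 43.4% GC, and 9.58% of promoters below 45% GC were called higher. With the GC trend removed Ccl3 was not called, at 1.52 (0.907 to 2.58). With the level trend removed it stood at 2.46 (1.47 to 4.19), still called higher. Csf1 was not called with TMM scaling, at 0.703 (0.548 to 0.897; 109 knockout, 177 wild-type reads). It was called lower in 5 of 14 other settings, among them scaling to total reads, at 0.649, and to background reads, at 0.568. Il12b, which encodes the p40 partner of Il12a, had 12 knockout against 15 wild-type reads, below the minimum.

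Receptors for the members' ligands gave 0 higher and 0 lower of 13 with enough reads out of 17, with a median log2 ratio of -0.12. Over all promoters compared, 0.665% were called higher and 4.9% lower. Scaled to background reads, 4 of the receptors were called lower: Il12rb2 at 0.602, Il12rb1 at 0.614, Il27ra at 0.616 and Tgfbr3 at 0.619. With that scaling 2035 of all 12186 promoters were called lower. Named here after its value was seen, and under the fold threshold with TMM scaling, Il27ra, which encodes the receptor chain for IL-27, lay below 1 at 0.762 (0.620 to 0.936; 159 knockout, 238 wild-type reads). The lowest were Il12rb2 at 0.745 and Il12rb1 at 0.761, the chains of the IL-12 receptor, and the highest Il10ra at 1.15 and Tgfbr1 at 1.08. Among 19 matched regulators of cytokine genes, 1 was called lower and 0 higher, with a median log2 ratio of -0.08. It was Cebpb, which encodes a transcription factor also known as nuclear factor for IL-6, with 29 knockout against 65 wild-type reads (0.509; 0.317 to 0.8). Cebpb was called in 8 of 11 other settings and not with the level trend removed, at 0.666, the GC trend removed, at 0.646, or both, at 0.779. Scaled to background reads, 4 regulators were called lower: Cebpb at 0.411, Socs3 at 0.576, Nfil3 at 0.637 and Nfkbia at 0.639. That count again stands beside the 2035 of 12186 promoters called lower with this scaling. With TMM scaling Socs3, a feedback inhibitor of cytokine signalling, had the second lowest ratio, 0.714 (0.594 to 0.856; 197 knockout, 315 wild-type reads), and Tnfaip3, a feedback inhibitor of NF-kB, the highest, 1.2 (1.08 to 1.35; 657 knockout, 623 wild-type reads). The 5 NF-kB subunit genes, named after their values were seen, were not called: Relb stood at 0.877, Rela at 0.910, Nfkb2 at 0.959, Nfkb1 at 1.04 and Rel at 1.10.

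Markers of the labelled cell type were present. All 8 B cell markers were strongly marked, with 376 to 570 knockout and 385 to 585 wild-type reads and none called. The 9 T and NK cell markers summed to 17 knockout against 33 wild-type reads, with Cd3d at 0 in the knockout library and Cd3e at 0 in the wild-type library. Among them Thy1 had 7 knockout and 21 wild-type reads, at 0.380 (0.137 to 0.929), below the read minimum with an interval under 1. The 9 myeloid markers summed to 169 knockout and 243 wild-type reads. Of these Cd14 had 118 knockout and 171 wild-type reads, Itgam 35 knockout and 27 wild-type reads, Emr1 9 knockout and 25 wild-type reads and Itgax 2 knockout and 14 wild-type reads. Emr1, at 0.411 (0.169 to 0.910), and Itgax, at 0.163 (0.018 to 0.710), were below the read minimum with intervals under 1. The other 5 had 0 to 3 reads in either library, among them Lyz2 with 1 knockout and 3 wild-type reads and Csf1r with 0 in both. The 4 plasma cell markers differed in direction. Igj was called higher at 3.25 (2.43 to 4.39; 182 knockout, 64 wild-type reads), and Prdm1, at 1.36 (1.17 to 1.6; 355 knockout, 297 wild-type reads), Xbp1, at 1.12 (0.975 to 1.28; 425 knockout, 434 wild-type reads), and Sdc1, at 0.724 (0.597 to 0.877; 179 knockout, 282 wild-type reads), were not called. The part of these shifts in the Il6 and Lta ratios was not tested. The promoter of the deleted gene, PA1 (2900092E17Rik), had 114 knockout against 261 wild-type reads, giving a ratio of 0.498 (0.396 to 0.624).

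**Figure D5:**
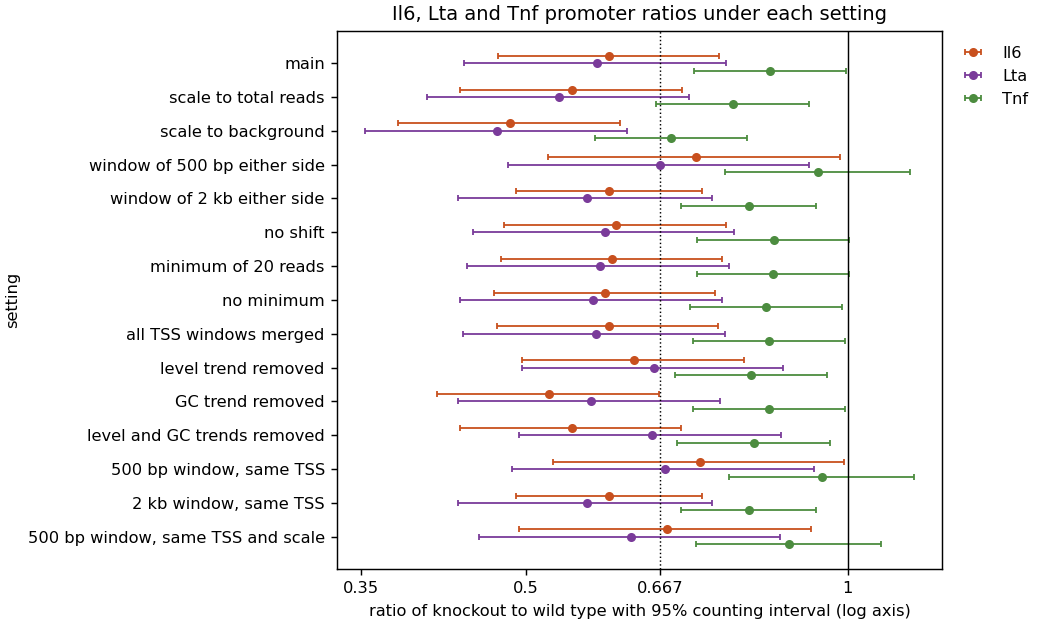
Ratios of knockout to wild type (log axis) at Il6, Lta and Tnf with 95% counting intervals under each way of counting and scaling; the solid line is 1 and the dotted line 1.5-fold lower. All 3 genes lay below 1 in every setting, and Il6 (3 settings) and Lta (2 settings) lay right of the dotted line only with 500 bp windows.

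Il6 and Lta lay below 1 in all 14 other settings. Il6 ran from 0.483 to 0.727 and was called lower in 11, and Lta ran from 0.470 to 0.674 and was called lower in 12. With 500 bp windows and a scale fitted to them neither was called, at 0.721 for Il6 (67 knockout, 113 wild-type reads) and 0.668 for Lta (61 knockout, 111 wild-type reads). With the same windows at the scale of the 1 kb windows, Il6 stood at 0.677 (0.493 to 0.924), not called, and Lta at 0.627 (0.451 to 0.865), called lower. Tnf ran from 0.683 to 0.946 and was called in none. Scaled to background reads, which shifts the median log2 ratio of all promoters by -0.31, all 8 members lay below 1, with Il12a at 0.824 and Ebi3 at 0.813. With that scaling every interval but that of Ebi3 (0.648 to 1.02) excluded 1. Those of Ltb (0.696 to 0.901), Tgfb1 (0.689 to 0.900), Il10 (0.619 to 0.934) and Il12a (0.726 to 0.934) had included it with TMM scaling. Within 5 Mb of Il6, 8 positions mismatched the reference only among knockout reads and 7 only among wild-type reads; around the TNF locus these were 5 for knockout and 4 for wild type.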

How the data were processed

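Native chromatin, cut to mononucleosomes with MNase, was precipitated with an antibody labelled H3K4 and sequenced after 18 PCR cycles and selection of fragments near 220 bp, per the labels' protocols. Each deposited file lists mapped reads of 25 bases by position, beside a score column that is 0 throughout and was not used. The authors gave no other value; mm9 and SICER are named in the submitters' processing notes without a role or version, and the sources used here name no aligner. No position and strand occurred more than once in a file. Positions were read as 1-based, since 100% of the mismatch letters then equalled the NCBIM37 base.

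Reads were counted with Python 3.11.15, numpy 2.4.6 and scipy 1.17.1. TMM (trims of 30% and 5%) was fitted on all 12186 promoters, and ratios have exact conditional binomial 95% intervals. Reads amplified by PCR carry no molecular identifiers here, so intervals cover counting error only. Islands came from 200 bp windows (Poisson probability under 1e-05, gaps up to 200 bp, 20 or more reads). Background scaling used reads outside islands and promoters (1306134 knockout, 1203686 wild type). Positions where 1 library alone mismatched the reference needed 3 mismatching reads there and 3 matching reads in the other (611 knockout and 662 wild type in the genome). Alternatives were scaling to total or background reads, windows of 500 bp or 2 kb, no shift, other read minimums, all starts merged, and removal of the trend with level or GC (lowess, statsmodels 0.14.6). The count and interval code was tested on simulated data. The members, lists and rules were chosen with earlier results of these data known: all members are named, and of other lists the called members or the 2 highest and 2 lowest. Il12b, Il27ra, the NF-kB subunits and other genes called with background scaling but not with TMM scaling of the 1 kb windows were named beyond that rule, after their values were seen. No test between genotypes is possible with 1 library each.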

Additional observations from a re-analysis of the deposited data

How the results depend on the processing

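The count of members called higher was 0 in all 14 other settings, and the count called lower was 2 in 11 of them. It was 0 with windows of 500 bp, both when the start was chosen again and when it was kept, and 1 (Lta) when the start and the scale were both kept. The last 2, and the 2 kb window with the start kept, were chosen after seeing the data, and the other 11 settings were planned. The scale, knockout over wild type, was 0.823 when fitted to the 500 bp windows with starts chosen again and 0.815 with starts kept, against 0.876 with 1 kb windows. The Lta call was thus lost with the refitted scale, and the Il6 call also with the narrower window alone. The members' median log2 ratio was negative in each setting and stood at -0.37 when scaled to background, where their flank median was -0.34. With that scaling the promoters called across the genome went to 17 higher and 2035 lower, of 12186, and with total reads to 41 higher and 947 lower. Removing the level trend gave 237 higher and 177 lower, removing the GC trend 37 higher and 459 lower, removing both 151 higher and 112 lower, and 500 bp windows 141 higher and 435 lower. The Il10 ratio stayed below 1 in all 14, while ratios of Ebi3, Il12a, Ltb and Tgfb1 crossed 1 between settings, from 0.788 at the lowest for Tgfb1 to 1.11 at the highest for Il12a. Ccl22 and Il1b were compared only with lower read minimums. No paired analysis was possible because each genotype has 1 library. At this depth Il1b and Ccl22 allow no comparison.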
